A study of Mus musculus with 2 samples.

Results

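Interleukin-10 (IL-10) is a cytokine that restrains inflammatory gene expression, above all in macrophages of the intestine. It binds a receptor made of a ligand-binding chain, encoded by Il10ra, and an accessory chain, encoded by Il10rb, which is shared with receptors for other cytokines of the family. Jak1 and Tyk2, the kinases attached to these chains, activate the transcription factor Stat3, whose targets include Socs3, a feedback inhibitor of cytokine signalling, and Bcl3, a nuclear partner of NF-κB. The 8 genes described here are the ligand gene Il10, both receptor chains, both kinases, Stat3, Socs3 and Bcl3. They were chosen by name, and all 8 were found among the 31053 genes of both count tables.

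The data were single-cell RNA-seq counts from sorted colon cells of mice with replaced bone marrow, with 1 library for each donor genotype. The recipients carried the CD45.1 allele and the donors CD45.2. Donor marrow lacked either the IL-10 receptor (KO; Il10rb in the study's mice) or both the receptor and CerS2 (DKO; Cers2 encodes a ceramide synthase for very long acyl chains), so the receptor deletion was shared by both libraries and no library with an intact receptor was analysed here. The study's methods describe a sort on CD45 and the myeloid surface proteins CD11b, CD11c and CD64, meant to keep out neutrophils and lymphocytes. Its results section names only a sort of CD45-positive immune cells. Genotype, mouse, sort and library could not be told apart, no test was run, and every interval below is a 95% interval of counting error only. The ages of the mice and the number pooled per library were not given in the labels.

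After the study's filter on cells the KO library held 2443 cells with a median of 4715 unique molecular identifiers (UMIs, 1 for each captured RNA molecule), and the DKO library 730 cells with a median of 3722. The libraries shared 1 barcode. Each cell was put into a class by its marker genes, none of which was one of the 8 genes. The labels call the cells colon macrophages, but monocyte/macrophage cells made up 61.4% of KO cells (1501) and 43.0% of DKO cells (314). T cells (247 and 94), B cells (217 and 166), neutrophils (145 and 43) and dendritic cells (45 and 26) were present as well, and most of the remaining cells fell into no class. A gate meant for NK cells took 50 and 15 cells that carried the T cell gene Cd3e at 303 and 279 CPM (UMIs of a gene per 1000000 UMIs of the same cells), against the NK cell marker Ncr1 at 21.9 and 93.1 CPM, so they are called Xcl1/Nkg7 lymphocytes after their leading genes. Macrophage RNA in T cells was gauged by Lyz2, an abundant macrophage transcript. It was detected in 16 of 247 KO T cells, with 130 UMIs, and in 2 of 94 DKO T cells, with 2 UMIs. KO T cells also held 107 UMIs of Arg1 and 20 of Csf1r, both macrophage markers, and DKO T cells held 0 of each. Free RNA, doublets and misplaced cells could not be told apart here, so KO T cell levels may include macrophage RNA.

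All 8 genes are annotated as protein-coding in GENCODE for genome build GRCm38. Il10 lies at chr1:131019845-131024974 and Il10rb at chr16:91406164-91425834, both on the plus strand. Il10ra lies at chr9:45253837-45269149, Jak1 at chr4:101152367-101265282, Tyk2 at chr9:21104068-21131243, Stat3 at chr11:100885098-100939540, Socs3 at chr11:117966079-117970047 and Bcl3 at chr7:19808462-19822770, all on the minus strand. Il10rb overlaps the gene model Gm21970 on the same strand, which had 0 UMIs in both libraries, and Stat3 overlaps Stat5a on the opposite strand. RefSeq promoters from 250 bases before to 50 bases after the annotated start were at hand for 5 of the 8 genes. STAT proteins bind sites of the form TTCNNNGAA, which reads the same on both strands and was found in 8.30% of 32851 promoters of this length. The Socs3 promoter held 1 match, TTCTTAGAA, beginning 154 bases before the start, and the promoters of Bcl3, Stat3, Jak1 and Tyk2 held none. The windows of both target genes are shown because their levels part in some cell types below, with the match in capitals. The RefSeq start used for Socs3 lies inside the GENCODE bounds given above, downstream of their start, and so does the whole Socs3 window. The windows cover chr11:117969317-117969616 and chr7:19822706-19823005 on the minus strand of GRCm38.p6.
Socs3: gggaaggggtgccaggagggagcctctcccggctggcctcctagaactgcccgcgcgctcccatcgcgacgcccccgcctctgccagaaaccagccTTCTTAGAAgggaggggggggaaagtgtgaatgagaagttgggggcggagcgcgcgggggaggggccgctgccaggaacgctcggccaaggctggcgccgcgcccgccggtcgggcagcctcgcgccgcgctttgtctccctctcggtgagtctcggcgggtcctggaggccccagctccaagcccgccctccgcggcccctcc
Bcl3: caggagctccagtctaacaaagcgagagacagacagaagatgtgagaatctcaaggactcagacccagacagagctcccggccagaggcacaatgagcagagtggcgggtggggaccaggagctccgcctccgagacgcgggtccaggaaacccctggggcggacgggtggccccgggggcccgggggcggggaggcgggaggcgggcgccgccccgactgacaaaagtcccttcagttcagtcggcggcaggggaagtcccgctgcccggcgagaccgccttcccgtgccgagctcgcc

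Il10, the ligand gene, was carried by few cells, most of them macrophages. The KO library had 178 Il10 UMIs in 72 of 2443 cells, and the DKO library 60 UMIs in 15 of 730 cells. Monocyte/macrophage cells held 84.8% of these UMIs in KO and 88.3% in DKO, and T cells held 14.6% and 11.7%. The monocyte/macrophage level was 18.1 CPM in KO (15.3 to 21.2) and 29.5 CPM in DKO (22.1 to 38.6). T cells stood at 22.4 CPM in KO (14.6 to 32.8) and 18.8 CPM in DKO (7.57 to 38.8), within counting error of macrophages in each library. No Il10 UMI was found in B cells or neutrophils of either library. Where a group had 0 UMIs, 3 counts were taken as its limit and the other group's level was used without its counting error. On this basis B cells were at least 3.54-fold below monocyte/macrophage cells in KO and at least 4.66-fold below them in DKO. KO neutrophils were at least 1.67-fold below. In the 43 DKO neutrophils the limit of 3 counts was 39.6 CPM, so a level like that of DKO macrophages was not detectable.

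Within the monocyte/macrophage class Il10 was highest in cells with markers of resident colonic macrophages, such as the mannose receptor gene Mrc1. This resident-like gate held 49 KO cells (3.26% of the class) and 43 DKO cells (13.7%). Its Il10 level was 125 CPM in KO (85.8 to 175), from 33 UMIs in 13 cells, and 173 CPM in DKO (123 to 238), from 38 UMIs in 7 cells. The rest of the class was at 14.6 CPM in KO and at 9.51 CPM in DKO. The log2 ratios of the gate over the rest were 3.11 (2.49 to 3.66) and 4.16 (3.29 to 5.16), both well clear of 0. The carriers differed widely among themselves: the 13 KO cells had 1 to 6 UMIs each and the 7 DKO cells 1 to 23. The DKO cell with 23 UMIs also carried 15 UMIs of Mrc1 and 20 of the macrophage gene C1qa and none of the T cell genes Cd3e and Foxp3. Without the top carrier of the gate and of the rest, the log2 ratios were 3.005 in KO and 3.75 in DKO. With 1 more resident marker required, the cell with 23 UMIs left the gate, and the log2 ratios were 2.35 over 28 KO cells and 1.18 over 30 DKO cells. Under this rule the gate was at 83.2 CPM and cells outside every gate at 21.8 CPM in KO, and in DKO, where the latter included the cell with 23 UMIs, the order turned, with 58.0 against 61.4 CPM.

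At the other end were classical monocytes, the circulating precursors of colonic macrophages. They had 4 UMIs in 407 KO cells, a level of 1.96 CPM (0.535 to 5.03), and 0 UMIs in 80 DKO cells. The DKO log2 ratio over the rest of the class had an upper interval limit of -2.14. C1q macrophages, the largest gate with 569 and 113 cells, were at 23.6 CPM in KO (18.9 to 29.1) and 12.2 CPM in DKO (5.59 to 23.2). In KO the intervals of classical monocytes, C1q macrophages and resident-like cells did not overlap, with the levels in this order. In DKO the C1q interval overlapped that of classical monocytes and lay below that of the resident-like gate. Set against the rest of the class in their own library, C1q macrophages had more Il10 in KO, with a log2 ratio of 0.78 (0.30 to 1.27). In DKO they had less, with -1.70 (-2.98 to -0.71), and the difference between these was not tested. Of the Il10 UMIs in this rest, the resident-like gate held 33 of 64 in KO. In DKO it held 38 of 44, of which 23 were in 1 cell. Cells of the Arg1/Nos2 gate, named for enzymes of inflammatory macrophages, were 131 in KO and 1 in DKO, and the KO cells were at 10.5 CPM (4.81 to 19.99). The 43 and 14 nonclassical monocytes had 1 Il10 UMI in each library.

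The other Il10 carriers were regulatory T cells, which express the transcription factor Foxp3. In KO, 17 of 26 T cell UMIs came from 5 of 21 such cells, a level of 174 CPM (101 to 278) against 8.46 CPM (3.87 to 16.1) in the other 226 T cells. In DKO all 7 T cell UMIs came from 1 of 4 regulatory T cells. The level of KO regulatory T cells could not be separated from that of KO resident-like macrophages.

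**Figure D1:**
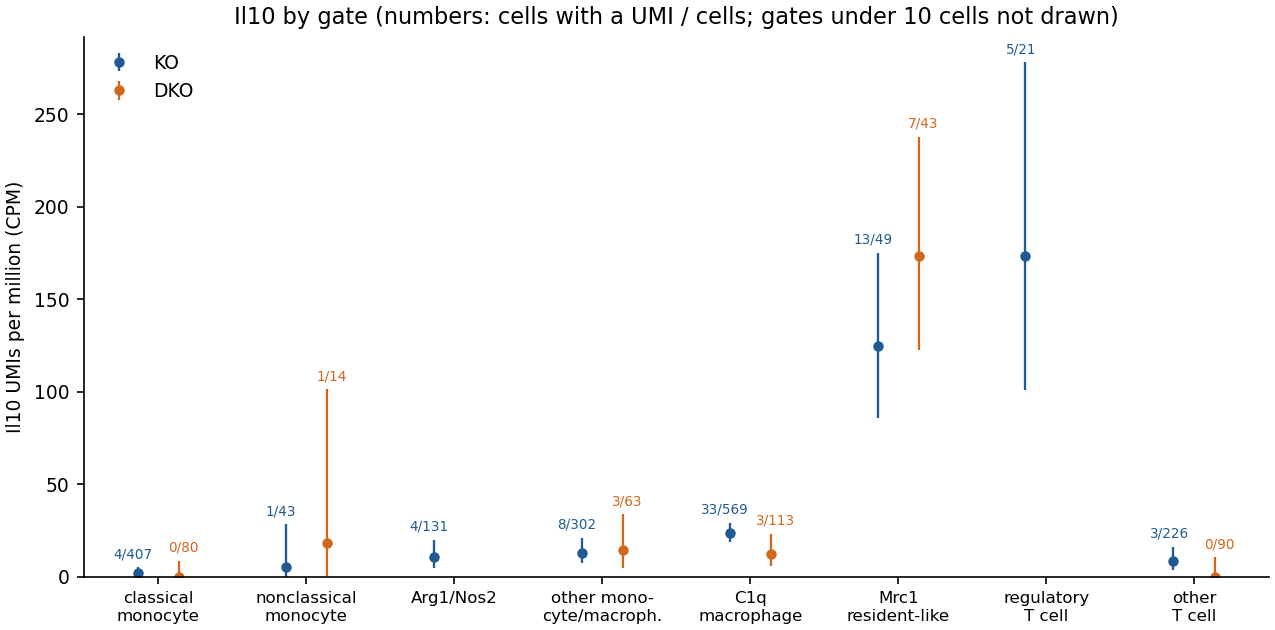
Il10 level in CPM (vertical axis) for each gate of monocyte/macrophage cells and of T cells with at least 10 cells, with KO in blue, DKO in orange, exact Poisson 95% intervals as lines and, above each, the cells with an Il10 UMI over all cells of the gate. The resident-like gate stands at 125 CPM (KO) and 173 CPM (DKO) and KO regulatory T cells at 174 CPM, and every other gate drawn is at 23.6 CPM or less.

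Il10ra, the ligand-binding chain, was highest in myeloid cells. Monocyte/macrophage cells stood at 87.0 CPM in KO (80.7 to 93.5), from 726 UMIs in 507 cells, and 102 CPM in DKO (88.2 to 118), from 184 UMIs in 118 cells. Neutrophils, at 101 CPM in KO (67.1 to 146) and 66.0 CPM in DKO (21.4 to 154), did not differ from them beyond counting error. Dendritic cells were at 31.6 and 49.7 CPM and B cells at 27.2 and 31.7 CPM, both below macrophages with no overlap of intervals in either library. T cells and Xcl1/Nkg7 lymphocytes were lowest in KO, at 6.89 CPM (2.97 to 13.6) and 7.31 CPM (0.886 to 26.4), from 8 and 2 UMIs. DKO T cells had 0 UMIs in 94 cells, at least 12.7-fold below DKO macrophages on the basis used for Il10.

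Shares of cells with an Il10ra UMI were compared after each cell had been thinned to 1500 UMIs. The share was 13.4% (11.6 to 15.3) in KO and 15.9% (11.9 to 20.7) in DKO monocyte/macrophage cells, 11.7% (5.99 to 19.97) in KO neutrophils, 3.98% (1.73 to 7.69) in KO B cells and 1.23% (0.255 to 3.57) in KO T cells. Monocyte/macrophage cells lay above B cells and T cells with no overlap of intervals, and neutrophils overlapped with macrophages and B cells. Unthinned, the same shares were 33.8%, 37.6%, 13.8%, 6.91% and 2.83%, at median depths of 5419, 5441.5, 1639, 2438 and 3812 UMIs. In 1 of 50 KO Xcl1/Nkg7 lymphocytes, at a median of 4076 UMIs, the gene was detected too, and the unthinned share of T cells, 2.83% (1.15 to 5.75), was not read as above background.

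Among the macrophage gates Il10ra had its highest levels in monocytes. Nonclassical monocytes, the patrolling subset of blood, were at 152 CPM in KO (103 to 218) and 163 CPM in DKO (74.7 to 310.3). Classical monocytes were at 111 CPM in KO (97.0 to 126) and 129 CPM in DKO (97.6 to 168). Their log2 ratios over the rest were 0.49 (0.25 to 0.72) and 0.47 (-0.020 to 0.92). KO cells outside every gate, at 106 CPM (89.5 to 126), could not be separated from KO classical monocytes, and in DKO the intervals of all gates overlapped. C1q macrophages were lower, at 67.7 CPM in KO (59.6 to 76.7) and 84.2 CPM in DKO (64.6 to 108), with log2 ratios over the rest of -0.59 (-0.82 to -0.37) and -0.45 (-0.92 to 0.0012), the KO interval below 0 and the DKO interval reaching it. The resident-like gate, which had the most Il10, did not stand out in Il10ra, with 86.9 and 114 CPM and log2 ratios over the rest of 0.029 (-0.67 to 0.60) and 0.20 (-0.49 to 0.79).

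Il10rb, the chain deleted in the donor marrow, was still detected, in 65 KO cells with 74 UMIs and in 13 DKO cells with 14. Which stretch of the gene the allele alters was not given in the sources used here, and these libraries read 3′ ends, so the tags do not check the deletion. Monocyte/macrophage cells were at 4.43 CPM in KO (3.12 to 6.11) and 5.01 CPM in DKO (2.29 to 9.51). Cers2, the other deleted gene, had 552 UMIs in KO cells against 2 in DKO cells. In monocyte/macrophage cells it had 419 against 0, and the log2 ratio, DKO over KO, had an upper interval limit of -4.60. Recipient cells carry both genes intact, and how many KO cells came from the recipient cannot be told from these counts.

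The UMIs of the receptor chains were spread differently over the KO classes. Monocyte/macrophage cells had 19.6 (14.1 to 28.1) Il10ra UMIs for each Il10rb UMI in KO and 20.4 (10.5 to 45.4) in DKO. KO neutrophils had 3.50 (1.55 to 8.89), from 28 and 8 UMIs. KO T cells had 0.471 (0.176 to 1.15), from 8 and 17 UMIs, an interval that includes equal numbers. These KO intervals did not overlap. UMIs mark 3′ ends, so transcript length does not enter the ratio, and whether the chains were captured equally was not tested. Since Il10rb was the deleted gene, these ratios do not describe cells with an intact receptor, and KO T cells may hold macrophage RNA. The share of recipient cells in each class was not known either. Il10rb itself was at 28.8 CPM (12.4 to 56.8) in KO neutrophils and 14.6 CPM (8.52 to 23.4) in KO T cells, above KO macrophages with no overlap. DKO T cells had 0 Il10rb UMIs, with an interval up to 9.92 CPM that overlapped that of KO T cells. The log2 ratio, DKO over KO, had an upper interval limit of -0.40.

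**Figure D2:**
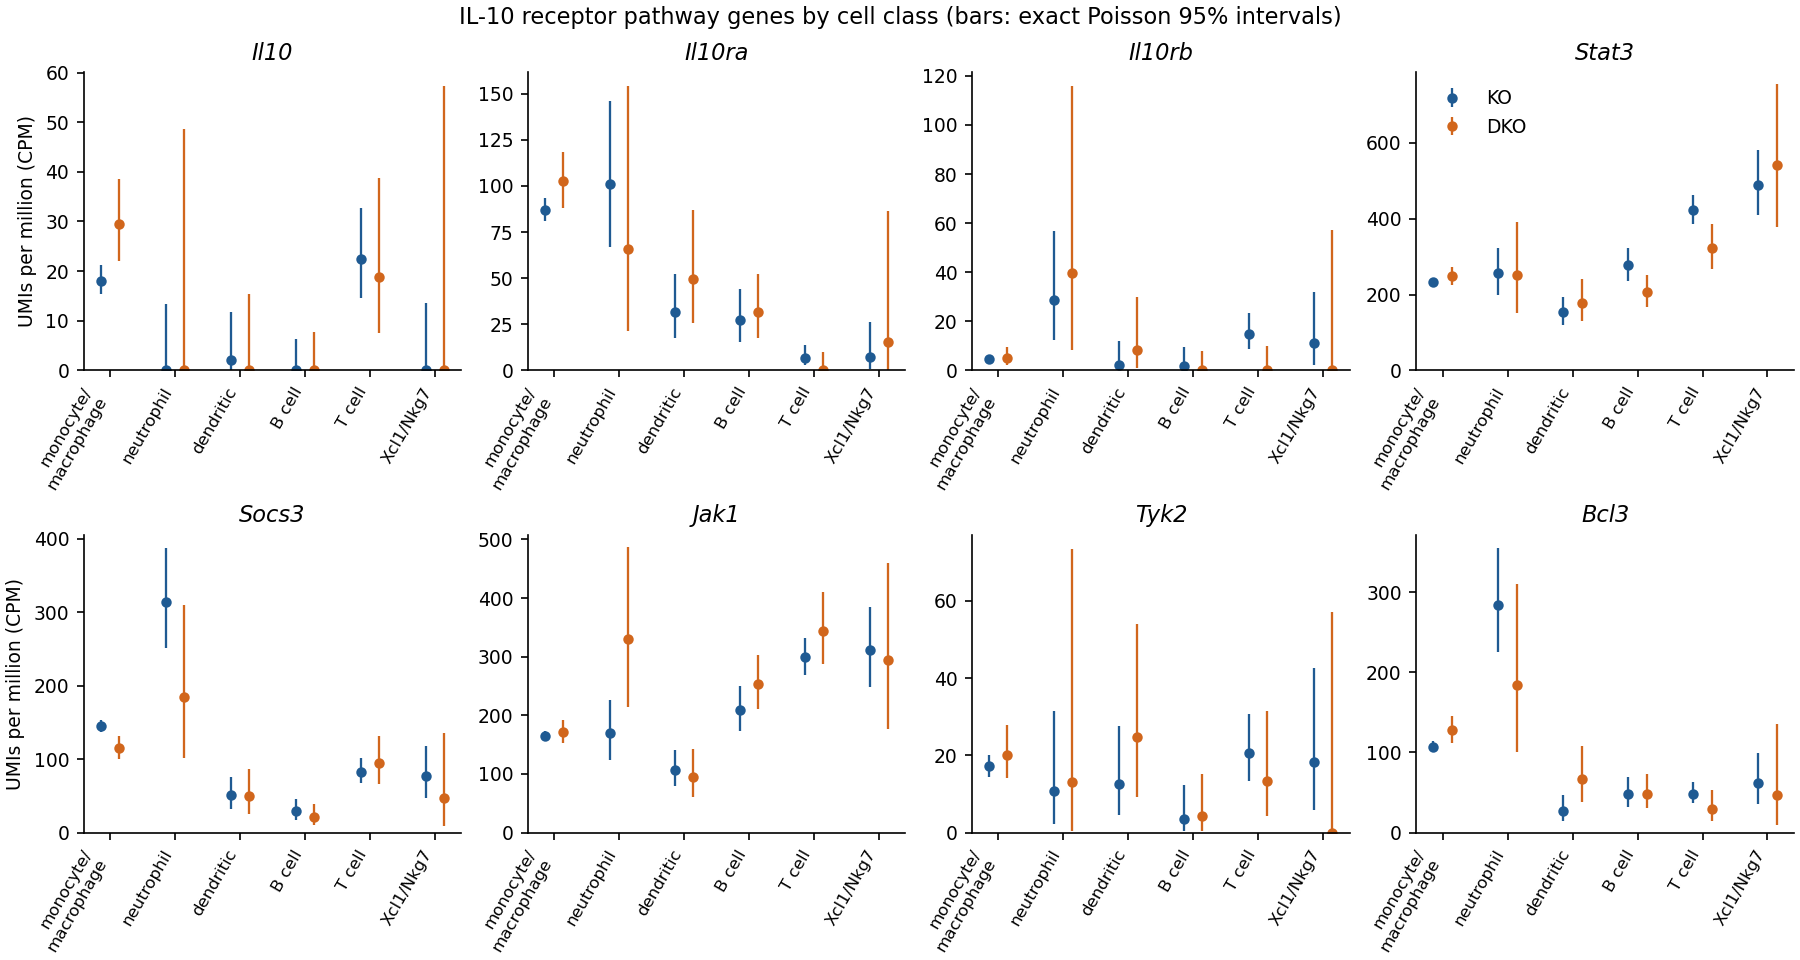
Level of each of the 8 genes in CPM (vertical axes, each from 0) in 6 cell classes, with KO in blue, DKO in orange and exact Poisson 95% intervals as lines. In KO, Il10ra, Socs3 and Bcl3 are higher in monocyte/macrophage cells and neutrophils than in T cells, whereas Stat3 and Jak1 are highest in T cells and Xcl1/Nkg7 lymphocytes, at 423 and 490.0 CPM for Stat3.

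The kinases and Stat3 were detected in all of these classes, apart from Tyk2 in the 15 DKO Xcl1/Nkg7 lymphocytes, and Jak1 and Stat3 were higher in T cells than in macrophages. Jak1, the kinase of the ligand-binding chain, stood at 299 CPM in KO (268 to 332) and 344 CPM in DKO (287 to 409) in T cells. Monocyte/macrophage cells were lower, at 164 CPM in KO (155 to 173) and 171 CPM in DKO (153 to 192), and dendritic cells lower again, at 108 CPM in KO (80.1 to 141) and 95.3 CPM in DKO (60.4 to 143), with no overlap at either step in either library. Tyk2, the kinase of the accessory chain, gave fewer UMIs and a flatter pattern. It was at 17.1 CPM in KO (14.4 to 20.2) and 20.05 CPM in DKO (14.0 to 27.8) in monocyte/macrophage cells, and KO T cells, at 20.7 CPM (13.2 to 30.7), could not be separated from them. KO B cells, with 2 UMIs and 3.40 CPM (0.412 to 12.3), lay below.

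Stat3, the transcription factor that carries the signal, was at 232 CPM in KO (222 to 243) and 249 CPM in DKO (226 to 273) in monocyte/macrophage cells. T cells were above this in KO, at 423 CPM (386 to 462), and in DKO, at 323 CPM (268 to 386), their interval overlapped with that of macrophages. Xcl1/Nkg7 lymphocytes were highest, at 490.0 CPM in KO (411 to 580.3) and 543 CPM in DKO (378 to 755). Neutrophils were at 256 and 251 CPM, next to macrophages, and KO dendritic cells were lowest of the 6 classes at 154 CPM (121 to 194). Classes taken from clusters in place of markers put KO T cells at 479 CPM, outside the interval above.

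Both target genes had their highest levels in neutrophils. In KO, Socs3 was at 314 CPM (251 to 387) in neutrophils, 145 CPM (137 to 153) in monocyte/macrophage cells, 82.6 CPM (66.9 to 101) in T cells and 28.9 CPM (16.8 to 46.3) in B cells, and none of these intervals overlapped. In DKO these 4 classes stood in the same order, 185, 115, 94.2 and 21.1 CPM, but the first 3 classes overlapped. Bcl3 was at 285 CPM (225 to 355) in neutrophils, 107 CPM (101 to 115) in monocyte/macrophage cells and 48.2 CPM (36.4 to 62.6) in T cells, again with no overlap. Its DKO levels were 185, 128 and 29.6 CPM, where neutrophils and macrophages overlapped and T cells lay below both.

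Neutrophils were the shallowest class, with median depths of 1639 and 1627 UMIs, and by the study's methods the sort was to remove them. After thinning to 1500 UMIs, Socs3 was detected in 31.9% (22.7 to 42.3) of the 94 KO neutrophils deep enough, 19.0% (17.0 to 21.2) of KO monocyte/macrophage cells, 11.5% (7.79 to 16.2) of KO T cells and 4.98% (2.41 to 8.96) of KO B cells, the class with the least. The unthinned shares were 30.3%, 41.2%, 25.9% and 7.83%.

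Besides Il10, the resident-like gate had more Bcl3 than other macrophages in both libraries, while the other genes were less clear, above all in KO. Each gate was compared with the remaining monocyte/macrophage cells of its library, and a gene was counted when at least 1.5-fold apart. In KO 4 of 8 genes were higher in the gate (Il10, Il10rb, Tyk2 and Bcl3), when 34.2% of 9376 genes tested were, and 0 were lower, against 17.5% of all genes. Il10rb had 2 UMIs in the KO gate and a log2 ratio of 1.11 (-2.30 to 2.76), and of these 4 genes the intervals of Il10 and Bcl3 excluded 0. In DKO 6 of 7 genes with enough UMIs were higher (Il10, Stat3, Socs3, Jak1, Tyk2 and Bcl3) against 29.5% of all genes, and 0 were lower against 18%. The median log2 ratio of all genes tested was itself above 0, at 0.24 in KO and 0.17 in DKO.

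Bcl3 was higher in the resident-like gate of both libraries, at 227 against 104 CPM in KO and 201 against 117 CPM in DKO, with log2 ratios of 1.14 (0.73 to 1.51) and 0.79 (0.27 to 1.25). Stat3 was at 321 against 229 CPM and at 456 against 220.1 CPM, with log2 ratios of 0.49 (0.15 to 0.80) and 1.06 (0.72 to 1.38). Jak1 gave log2 ratios of 0.47 (0.059 to 0.84) and 0.81 (0.37 to 1.21). All these intervals lay above 0, and the KO intervals of Stat3 and Jak1 included the median of all genes. Tyk2 had 9 and 10 UMIs in the gate and log2 ratios of 1.11 (-0.12 to 2.005) and 1.51 (0.25 to 2.57), and Socs3 had log2 ratios of 0.32 (-0.15 to 0.73) and 0.67 (0.10 to 1.17). Some calls turned on the gate or on 1 cell: with 1 more marker required, Tyk2 in KO was at 0.55, Socs3 in DKO at 0.34 and Jak1 in KO, then past 1.5-fold, at 0.61. Without the top carriers Il10rb in KO was at 0.52 and Socs3 in DKO at 0.50.

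In classical monocytes of KO 2 of 8 genes were at least 1.5-fold higher than in the rest (Il10rb and Bcl3; 11.5% of all genes) and 1 of 8 was lower (Il10; 18.4%). In DKO 0 of 7 were higher, against 13.2% of all genes, and 2 of 7 were lower (Il10 and Tyk2; 21.8%). Bcl3 had a log2 ratio over the rest of 0.60 (0.39 to 0.80) in KO and 0.13 (-0.33 to 0.56) in DKO, Stat3 of 0.35 (0.20 to 0.49) and -0.10 (-0.44 to 0.22), and Jak1 of 0.52 (0.35 to 0.68) and -0.24 (-0.67 to 0.15). The intervals of both libraries overlapped for Bcl3 and Stat3 and not for Jak1, and no difference between libraries was tested. Il10rb in KO rested on 12 UMIs and was at 0.57, under 1.5-fold, without the barcodes of highest doublet score. Tyk2 in DKO rested on 5 UMIs and was at -0.34 with 1 more marker required, where Jak1 in DKO changed sign to 0.023.

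The target genes parted in the Arg1/Nos2 gate of KO, where 1 of 8 genes was at least 1.5-fold higher than in the rest (Socs3; 15% of all genes) and 1 of 8 lower (Il10; 28.8%). Socs3 was at 211 against 137 CPM, with a log2 ratio of 0.62 (0.38 to 0.85), and Bcl3 at 76.0 against 111 CPM, with -0.54 (-0.93 to -0.18). Socs3 fell just under 1.5-fold without the barcodes of highest doublet score (0.55) and without the top carriers (0.56), and Bcl3 passed it with 1 more marker required (-0.69) and without the top carriers (-0.61). They parted also in nonclassical monocytes of KO, the other way round, with Bcl3 at 0.77 (0.22 to 1.24), Socs3 at -0.64 (-1.43 to -0.0080) and Stat3 at 0.97 (0.63 to 1.27). C1q macrophages had less Stat3 and Bcl3 than the rest in both libraries. There Stat3 was at -0.59 (-0.73 to -0.46) in KO and -0.62 (-0.92 to -0.33) in DKO, and Bcl3 at -0.67 (-0.88 to -0.47) and -0.74 (-1.18 to -0.33).

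**Figure D3:**
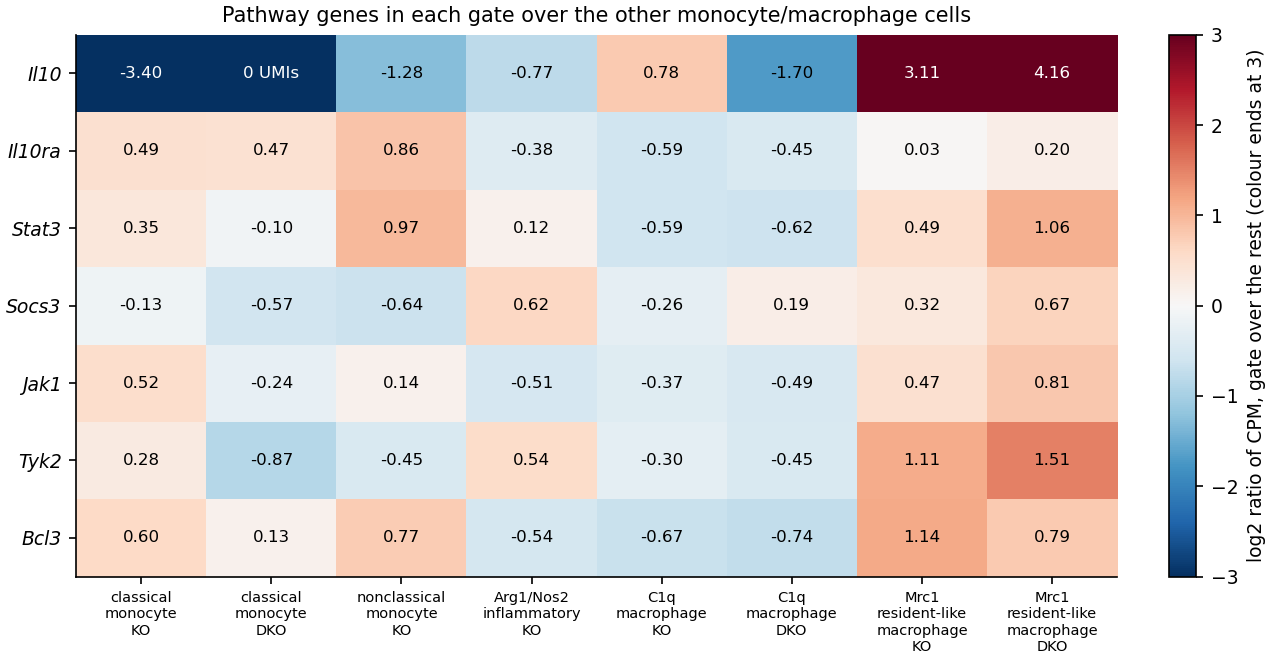
Log2 ratio of CPM in each gate over the other monocyte/macrophage cells of the same library (columns) for 7 of the 8 genes (Il10rb left out for its few UMIs), with red for higher and blue for lower in the gate and colours ending at 3. Il10 runs from -3.40 in KO classical monocytes to 4.16 in the DKO resident-like gate, with 0 UMIs in DKO classical monocytes, and the other genes stay between -0.87 and 1.51.

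The comparison of both libraries asked how the pathway stood with and without Cers2 when the receptor was deleted. In monocyte/macrophage cells 1 of 8 genes, Il10, was at least 1.5-fold higher in DKO, when 12.2% of 9733 genes tested were, and 0 of 8 were lower, against 8.44% of all genes. The log2 ratio of Il10, DKO over KO, was 0.72 (0.23 to 1.17). Without the top carrier of each library it was 0.027. The make-up of the class differed too, in that the resident-like gate took 3.26% of the class in KO and 13.7% in DKO. With the gates weighted as in KO, a setting added with the results known, it was -0.32. Within gates it was 0.47 (-0.24 to 1.19) in resident-like cells and -0.88 (-2.12 to 0.043) in C1q macrophages. Cells with an Il10 UMI made up 4.197% (3.24 to 5.34) of the class in KO and 4.46% (2.46 to 7.37) in DKO, against none of 217 KO and 166 DKO B cells.

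Socs3 was lower in DKO monocyte/macrophage cells, at 115 against 145 CPM, with a log2 ratio of -0.33 (-0.56 to -0.12) and a range of -0.45 to -0.25 over 10 alternative settings. By gate, the log2 ratio of Socs3 was -0.68 (-1.25 to -0.20) in classical monocytes and -0.52 (-1.08 to -0.032) in cells outside every gate. It was -0.067 (-0.41 to 0.25) in C1q macrophages and -0.070 (-0.74 to 0.58) in resident-like cells. All these intervals overlapped, and the difference between gates was not tested. Bcl3, the other target, was at 0.25 (0.031 to 0.46), an interval that includes the median of all genes, with 0.14 under TMM scaling and 0.092 with the gates weighted as in KO. Of the receptor chains and Tyk2, Il10ra was at 0.24 (-0.0047 to 0.47), Il10rb at 0.24 (-1.06 to 1.25) and Tyk2 at 0.24 (-0.34 to 0.76). Stat3 and Jak1 lay nearest to 0, at 0.10 (-0.052 to 0.25) and 0.067 (-0.12 to 0.24), and turned to -0.013 and -0.047 under TMM scaling, which shifted all genes by -0.11. The median of all genes before that shift was 0.086.

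**Figure D4:**
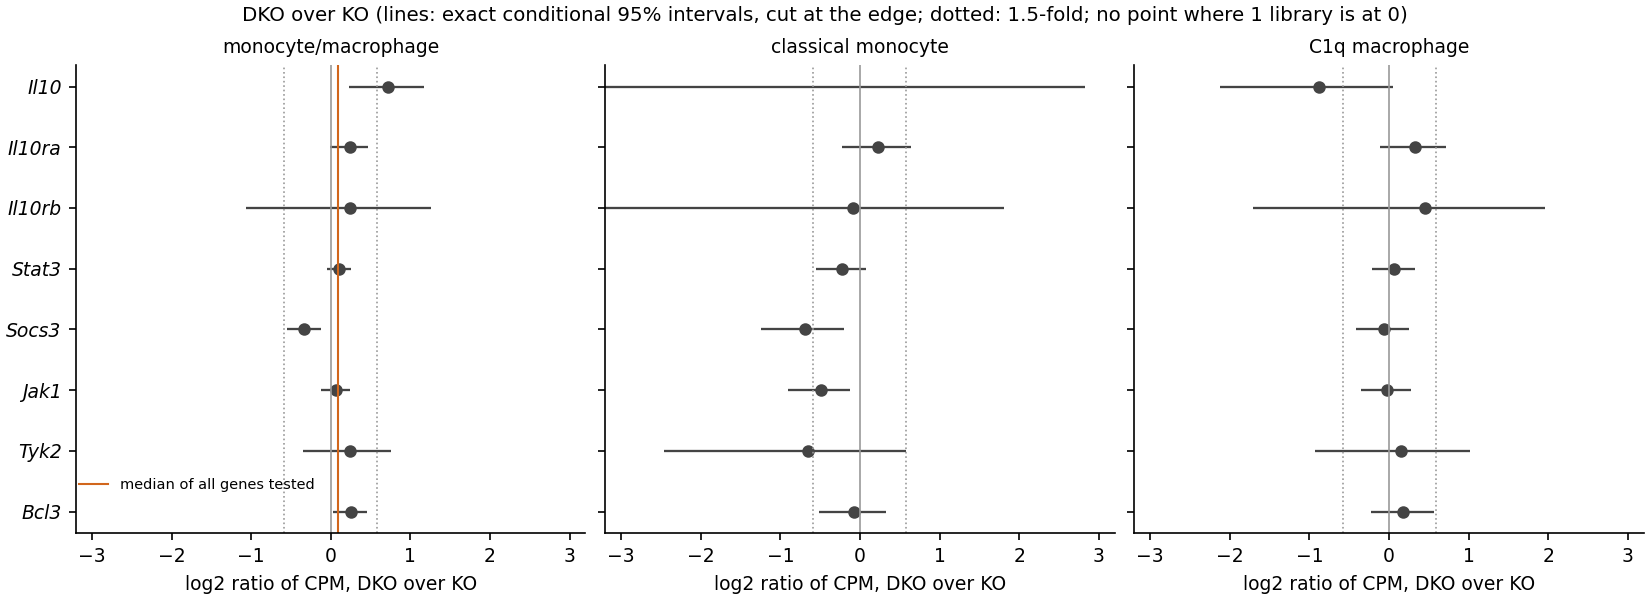
Log2 ratio of CPM, DKO over KO (horizontal axes), of the 8 genes in all monocyte/macrophage cells and in the classical monocyte and C1q gates, with exact conditional 95% intervals as lines that end at the panel edge, dotted lines at 1.5-fold and, in the first panel, an orange line at the median of all genes tested (0.086). Il10 is at 0.72 in the whole class and -0.88 in C1q macrophages, and Socs3 is at -0.33 in the whole class and -0.68 in classical monocytes.

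Jak1 and Stat3 were also compared between libraries in other classes and in single gates. Jak1 was higher in DKO neutrophils, 329.9 against 169 CPM, with a log2 ratio of 0.97 (0.20 to 1.69) from 25 and 47 UMIs, and in the classical monocyte gate it was lower, at -0.49 (-0.90 to -0.12). Stat3 was lower in DKO T cells at -0.38 (-0.69 to -0.10) and in DKO B cells at -0.42 (-0.80 to -0.052), and higher in DKO resident-like macrophages at 0.50 (0.074 to 0.94). Socs3 was at -0.72 (-1.69 to 0.060) in neutrophils, 0.20 (-0.41 to 0.76) in T cells and -0.43 (-1.74 to 0.76) in B cells, and all these intervals included 0.

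The wider pathway was followed with 7 lists of 56 genes. None of 6 other ligands of the IL-10 family reached 20 UMIs in monocyte/macrophage cells, and Il19 alone had any, 3 UMIs in KO. Of 5 other chains of the receptor family only Il22ra2, which encodes the soluble decoy receptor for IL-22, had enough UMIs. It had 222 UMIs in 8 of 314 DKO cells and 2 UMIs in KO, with a log2 ratio of 8.69 (7.14 to 12.07). This value too rested on few cells: 1 cell held 56 UMIs, and 180 UMIs lay in 6 cells that clustering placed with dendritic cells. The dendritic class itself had the gene at 642 CPM in 5 of 26 DKO cells and at 31.6 CPM in 1 of 45 KO cells. The 8 DKO cells of the macrophage class in that cluster held 11 of its 12 UMIs of the dendritic cell gene Flt3 and none of its Il10.

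Of 8 other JAKs and STATs 2 were higher and 6 lower in DKO monocyte/macrophage cells, with a median log2 ratio of -0.25, when 5757 of 9733 genes tested were higher and 3976 lower. Past 1.5-fold 0 were higher and 3 lower, against 12.2% and 8.44% of all genes. Jak2, a kinase of many cytokine receptors, was lower at 74.6 against 113 CPM, with a log2 ratio of -0.59 (-0.87 to -0.33), and Jak3, the kinase of the common gamma chain, was at -0.76 (-1.93 to 0.13). Of 7 negative regulators 1 was higher and 6 were lower, with a median of -0.053, and for 4 of those lower (Ptpn1, Ptpn2, Ptpn6 and Socs2) the interval included 0. Socs1, an inhibitor of interferon signalling and a relative of Socs3, was past 1.5-fold, at 44.5 against 108 CPM and -1.27 (-1.63 to -0.95), and Socs2 was at -0.47 (-1.37 to 0.25). Of 5 other STAT3-coupled receptors with enough UMIs 3 were higher and 2 lower, with a median of 0.15. Lifr, the receptor for leukaemia inhibitory factor, was at 0.62 (0.15 to 1.05) and Il6ra, the IL-6 receptor, at 0.56 (0.29 to 0.82). Of 57 DKO UMIs of Lifr 24 lay in the resident-like gate. Outside that gate Lifr was at 20.9 CPM in DKO and 18.9 CPM in KO.

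Of 15 further targets of IL-10 or STAT3, 9 were higher and 6 lower in DKO, with a median log2 ratio of 0.059, close to that of all genes. Saa3, an acute-phase protein gene, was at 21.2 against 90.3 CPM, with a log2 ratio of -2.08 (-2.60 to -1.62). Il1rn, which encodes the IL-1 receptor antagonist, was at 611 against 1272 CPM, with -1.06 (-1.15 to -0.97), and Ddit4, an inhibitor of mTOR signalling, was at -0.85 (-1.65 to -0.19). In the other direction Timp1, a metalloproteinase inhibitor, was at 1.099 (0.24 to 1.87), and 17 of its 20 DKO UMIs lay in the resident-like gate. In the Arg1/Nos2 gate of KO, which had 1 cell in DKO, these 4 genes had log2 ratios over the rest of -0.22 (-0.61 to 0.14) for Saa3, 0.90 (0.83 to 0.98) for Il1rn, 2.20 (1.71 to 2.68) for Ddit4 and 2.20 (1.18 to 3.13) for Timp1. Outside that gate KO cells had Il1rn at 1168 CPM, still above the DKO level. Of 6 transcription factors that drive Il10, 4 were higher and 2 lower, with a median of 0.26. Irf4 was at 1.17 (0.67 to 1.65) and Prdm1, which encodes Blimp-1, at -0.59 (-0.88 to -0.31).

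**Figure D5:**
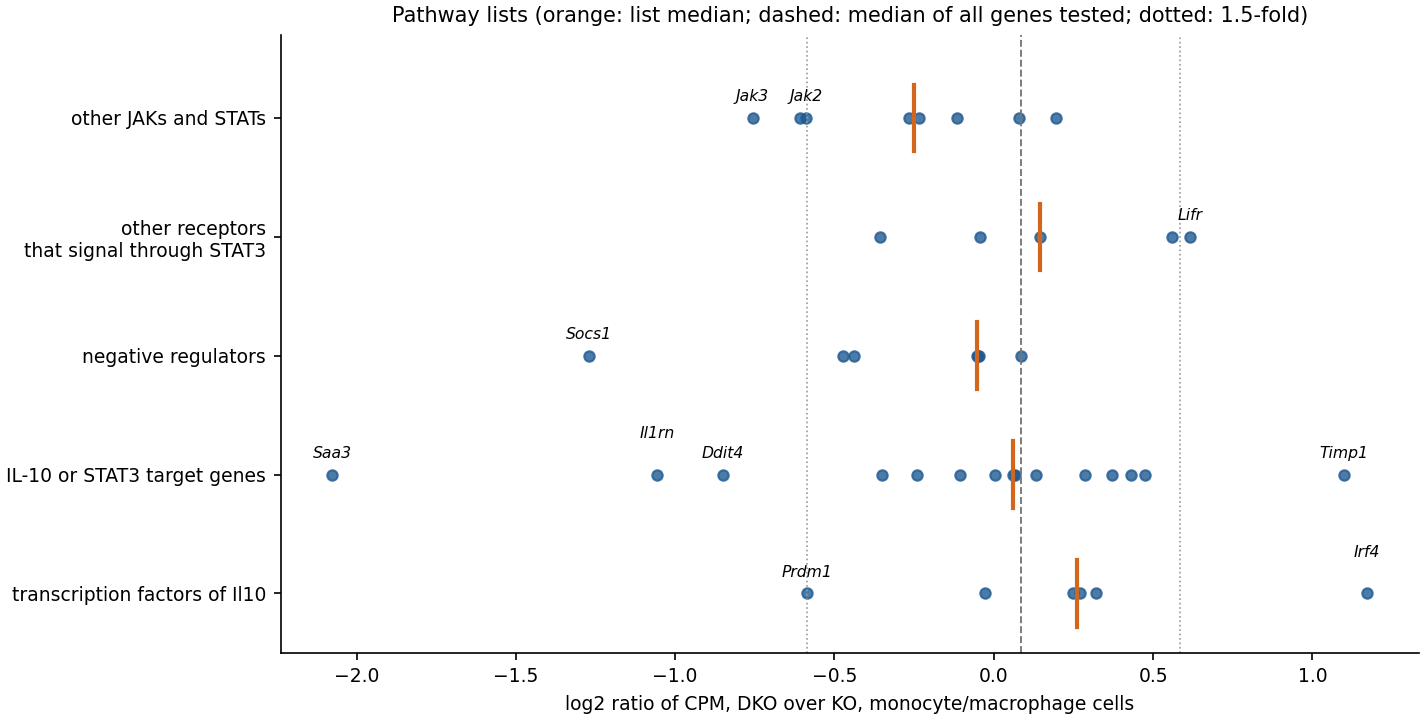
Log2 ratio of CPM, DKO over KO (horizontal axis), in monocyte/macrophage cells for the tested genes of 5 pathway lists, 1 point a gene, with list medians in orange, the median of all genes tested (0.086) dashed and 1.5-fold dotted. The JAK and STAT list has its median at -0.25, and Saa3 at -2.08 and Socs1 at -1.27 lie farthest to the left.

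The same lists were read across the gates. In the resident-like gate 11 of 15 further targets were higher than in the rest in KO and 11 of 13 in DKO, with median log2 ratios of 0.55 and 1.04 beside 0.24 and 0.17 for all genes. Of all genes 5763 of 9376 were higher in KO and 3819 of 6574 in DKO. Dusp1, a phosphatase that turns off MAP kinases, was at 1.68 (1.503 to 1.84) and 1.40 (1.17 to 1.61), and Zfp36, which destabilises cytokine messenger RNA, at 1.24 (1.05 to 1.41) and 1.04 (0.80 to 1.28). Hmox1, a haem-degrading enzyme gene, was at 1.13 (0.78 to 1.44) and 1.25 (0.85 to 1.63). Il1rn was at -0.68 (-0.89 to -0.49) in KO and -0.084 (-0.37 to 0.18) in DKO. Saa3 was at -1.91 (-3.48 to -0.90) in KO, and in DKO had 0 UMIs in the gate against 38 in the rest. Ddit4 had 0 UMIs in the KO gate against 163 in the rest. Among the factors that drive Il10, Maf was at 1.03 (0.59 to 1.42) and 1.43 (0.97 to 1.86) and Irf4 at 2.28 (1.35 to 3.03) and 2.64 (1.80 to 3.45), whereas Prdm1 in KO was at -1.19 (-2.26 to -0.41). The medians of the whole factor list were 0.23 in KO and 0.051 in DKO, no higher than those of all genes. Maf was also higher in the Arg1/Nos2 gate of KO, at 1.30 (1.05 to 1.53). Il10 had 9 UMIs in that gate and a log2 ratio of -0.77 (-2.01 to 0.12), an interval that includes 0. In the Arg1/Nos2 gate of KO 5 of 7 negative regulators were at least 1.5-fold higher than in the rest (Socs1, Socs2, Cish, Ptpn2 and Pias3), when 15% of all genes were, with a median log2 ratio of 0.67 beside -0.20 for all genes. Socs1 was at 0.67 (0.39 to 0.92) and Socs2 at 1.74 (1.05 to 2.36) there, on the same side as Socs3. Pias3 rested on 6 UMIs in the gate, and its interval, -0.33 to 2.60, included 0. The remaining genes of the list were lower there, Ptpn1 at -0.46 (-0.66 to -0.27) and Ptpn6 at -0.51 (-0.89 to -0.16).

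The genes most like each member in level were sought among 6142 genes, as Pearson correlations of log2(CPM + 10) over 14 points. These were the sums in both libraries of B cells, T cells, neutrophils, classical monocytes, C1q and resident-like macrophages, and macrophages outside every gate. Dendritic cells, Xcl1/Nkg7 lymphocytes and the Arg1/Nos2 and nonclassical gates had fewer than 30 DKO cells and were left out. Socs3 and Bcl3 had parted in these 2 gates of KO. The points share 2 libraries and differ in depth, so these values are descriptions. Il10 was most like Wwp1 (0.94), Dhrs3 (0.93) and Kcnn4 (0.90), and Il10ra was close to Marcks (0.96) and Pdlim5 (0.95). Jak1 was most like March6 (0.83), Cnn2 (0.83) and Ccdc174 (0.82), and Tyk2 most like Iqgap2 (0.94), Tpm3 (0.94) and Agtrap (0.90). Stat3 shared Cnn2 (0.88) with Jak1 and was followed by Scyl2 (0.87) and Dock2 (0.86). Socs3 was most like B2m (0.96), Pim1 (0.95) and Rab11fip1 (0.95), and Bcl3 most like Mcl1 (0.95), Gda (0.95) and Rasgrp4 (0.95). Pim1 and Mcl1 are on the list of further targets. Among the members, Il10 and Tyk2 correlated at 0.84, Il10ra and Bcl3 at 0.83, Socs3 and Bcl3 at 0.76, Stat3 and Jak1 at 0.66 and Il10ra and Jak1 at -0.62. Il10rb had too few UMIs to be included.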

How the data were processed

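Droplet libraries of 3′ ends were made from sorted colon cells of chimeric mice, 1 for each donor genotype. The deposited files hold raw counts of UMIs for every gene and barcode, aligned to mm10, and Cell Ranger 6.0.1 is named in the authors' processing notes. The study's cell filter was applied (300 to 5000 genes, mitochondrial share up to 10%). A cell was gated to the class with the most detected markers relative to the 99th percentile of that number over cells, with at least 2 markers and no tie, and regulatory T cells also needed a Foxp3 UMI. This scoring was set after marker levels had been seen. Doublets stayed in: Scrublet (scanpy 1.11.5) called 6 of 2584 KO and 2 of 742 DKO barcodes, too few for a working call, so the 5% of barcodes with the highest scores were left out as an alternative.

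UMIs were summed per class and library and given as CPM. Log2 ratios had 0.5 counts added to each sum, and genes needed 20 UMIs over both sums to be counted as tested. Intervals were exact Poisson for sums, exact conditional for ratios and exact Clopper-Pearson for shares. They treat UMIs as independent, so for Il10, whose UMIs lie in few cells, they are too narrow. Classes from clusters (Seurat 5.3.0) put 94.5% of gated cells in the same class. By cluster the share with the same gate ran from 34.9% (epithelial) to 97.3% (a macrophage cluster). It was 39.6% in the dendritic cluster and 68.9% in 1 T cell cluster. The ratio and interval code was tested on simulated data. Of each list the 2 genes with the largest log2 ratio between libraries and all past 1.5-fold were named, and list genes named within gates were picked after their values were seen. For likeness the 3 best genes with at least 200 UMIs were kept, for members with at least 100 UMIs. Some genes picked by these rules are not reported here. The members, markers and lists were chosen with earlier results of these data known. Positions are from GENCODE M21 and promoters from RefSeq.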

Additional observations from a re-analysis of the deposited data

How the results depend on the processing

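With 1 library per genotype, no value here has a replicate check. No paired analysis was possible because the labels give no replicates. Other scalings, cell filters, doublet removal and classes from clusters left the members' ratios between libraries within their counting intervals. Without the top carrier of each library the log2 ratio of Il10, DKO over KO, moved from 0.72 to 0.027, and with the gates weighted as in KO, added with the results known, to -0.32. With 1 more marker required, the log2 ratio of Il10 in the resident-like gate over the rest moved to 2.35 in KO and 1.18 in DKO. With a minimum of 1 UMI, which adds genes with few counts, the median of the other STAT3-coupled receptors moved from 0.15 to 0.56. Between libraries Stat3 turned to -0.013, -0.016 and -0.041 and Jak1 to -0.047, -0.050 and -0.091 under TMM scaling, median-of-ratios scaling and gates weighted as in KO, and Il10rb to -0.019 without the barcodes of highest doublet score. The counts of members past 1.5-fold between libraries stayed at 1 higher, Il10, and 0 lower under 9 alternatives. Without the top carriers, or with the gates weighted as in KO, Il10 was not past 1.5-fold. The 37 and 9 Il10rb UMIs in macrophages limit what can be said of that gene.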
